A study of Mus musculus with 6 samples.

Results

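The genes described here are 10 transcriptional outputs and feedback inhibitors of RAS-ERK signalling: the phosphatases Dusp4, Dusp5 and Dusp6, the inhibitors Spry1, Spry2, Spry4 and Spred1, the transcription factors Etv4 and Etv5, and Phlda1. They were chosen by name and found through the gene symbols of the array's platform annotation. That gave 14 probes of 9 genes among the 25697 probes of the array. Dusp5 was not analysed here. Probes whose detection p-value, as deposited, was below 0.05 on 3 or more of 6 arrays were tested, which kept 11 probes of 7 genes among 13409 probes of the whole table. All 11 probes but 1 of Dusp4 were detected on all 6 arrays, so the selection did not rest on one of the groups.

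RNA came from cells of the cecum held on a magnetic column by CD45, a surface protein of leukocytes, after epithelial cells had been shaken loose with EDTA and the remaining tissue digested with dispase. There were 3 samples from serrated polyps (SP) and 3 from the normal distal cecum around them (Surrounding), 1 of each from HBUS mice 1, 2 and 3. The labels give neither age nor sex. As background on the strain, HBUS mice carry transgenes for HB-EGF, a ligand of the EGF receptor, and for US28, a chemokine receptor of a cytomegalovirus, in the intestinal epithelium; both groups therefore carry them, and no mice without them were analysed here. The labels do not state whether each sample came from 1 polyp or several.

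When a growth factor binds a receptor tyrosine kinase, adaptor proteins switch on RAS, which activates RAF, MEK and then the kinase ERK. ERK enters the nucleus and induces a set of genes within minutes to hours, and several of these encode proteins that dampen the same cascade: dual-specificity phosphatases remove the activating phosphates from ERK, and Sprouty and Spred proteins act near RAS and RAF. In the gut the EGF receptor feeds this cascade in epithelial cells, while antigen and cytokine receptors feed it in leukocytes, so these mRNAs are often read as a record of recent pathway output.

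None of the 7 tested genes changed between SP and Surrounding samples (limma, adjusted p from 0.137 for Phlda1 to 0.918 for Etv5, n = 3 pairs). At an unadjusted p under 0.05, 1 of the 7 passed, Phlda1, against 28.9% of the 9246 tested genes. By the adjusted test 11.5% of all tested genes changed, and 10.4% of all tested probes, so that a count of 0 among 7 is not a result about these genes as a set. Their median difference was -0.03 on the log2 scale (SP minus Surrounding), against 0.02 over all tested genes, and 3 of the 7 had values above 0. In 6 of the 7 the 95% interval of the difference lay within a 2-fold change in either direction, as it did for 92.7% of all tested genes; the exception was Dusp4. Only Phlda1 had the same sign in all 3 mice, whereas 51.6% of all tested genes did. SP and Surrounding values overlapped for every one of the 7, while 20.2% of all tested genes had groups that did not overlap. Levels are given as normalised log2 intensities of the brightest tested probe unless stated. Brightness was used to pick probes and genes, and says nothing of how much mRNA a gene has relative to another.

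**Figure D1:**
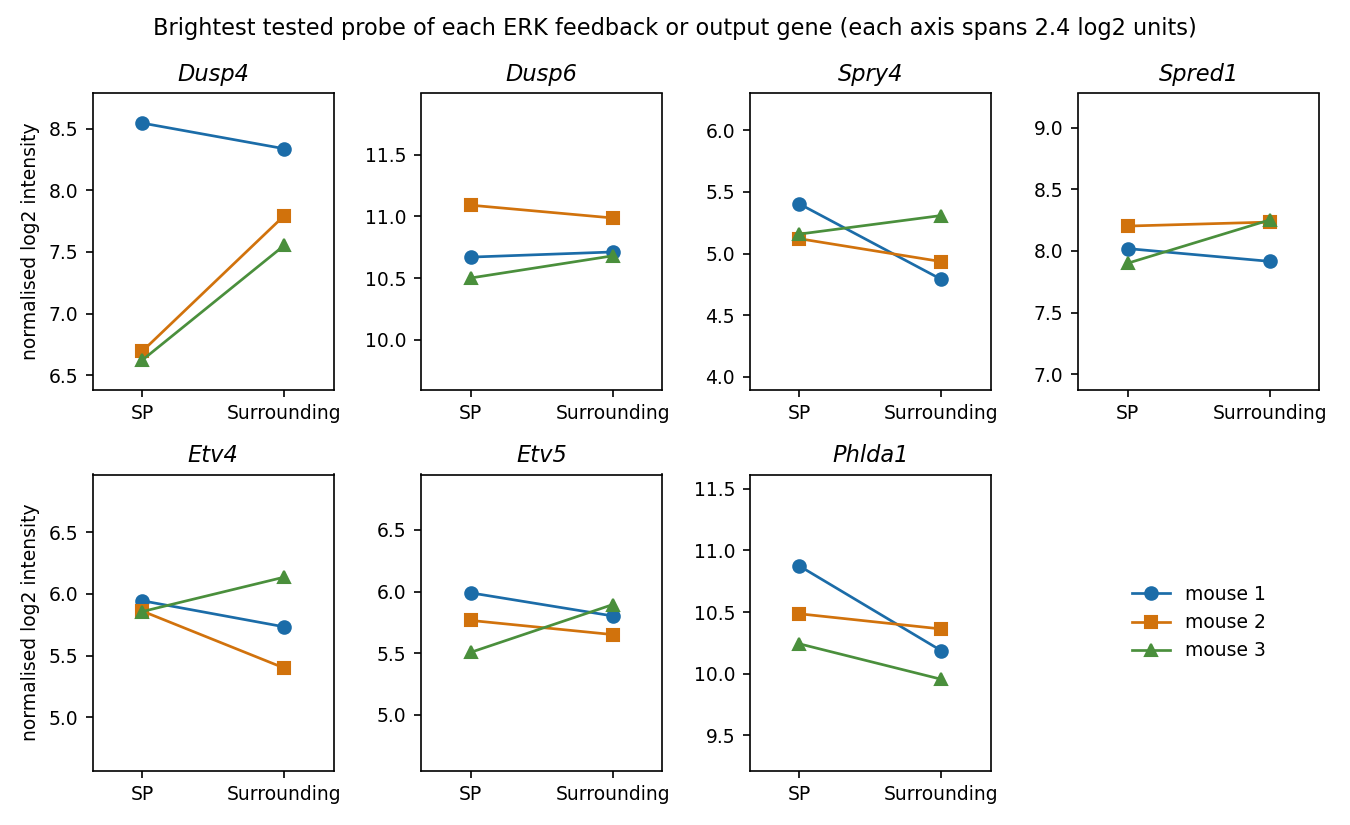
Normalised log2 intensity of the brightest tested probe of each of the 7 genes in SP (left) and Surrounding (right) samples, with a line joining the samples of a mouse. Dusp4 differs by mouse, with mouse 1 higher and mice 2 and 3 lower in SP; Phlda1 is higher in SP in all 3 mice.

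Dusp6 encodes a cytoplasmic phosphatase that acts mainly on ERK. Its brightest probe (ILMN_2925711) read 10.67, 11.09 and 10.50 in SP from mice 1, 2 and 3, against 10.71, 10.99 and 10.68 in their Surrounding tissue. The groups overlapped fully, and the mice lay further apart than the tissues: the mean of a mouse's own 2 samples varied over 0.45. The difference was -0.04 ± 0.10 (SE, n = 3 pairs, limma adjusted p = 0.837), with a 95% interval from -0.28 to 0.20, which is 0.823 to 1.15 times the Surrounding level. A second Dusp6 probe (ILMN_1248537) differed by -0.16 ± 0.11 (limma adjusted p = 0.407) and the third (ILMN_2701321) by -0.04 ± 0.10 (limma adjusted p = 0.846). All 3 probes of Dusp6 thus had intervals that reached both sides of 0 and stayed within 2-fold.

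Dusp4 encodes a nuclear phosphatase that acts on ERK and on the related stress kinases, and it was the member whose mice differed most. Its brightest probe (ILMN_2689731) read 8.54, 6.70 and 6.62 in SP from mice 1, 2 and 3, against 8.34, 7.79 and 7.55 in their Surrounding tissue. The SP sample of mouse 1 was the highest of the 6, and those of mice 2 and 3 were the lowest. Within mice, SP minus Surrounding was 0.21, -1.10 and -0.93. The fit gave -0.61 ± 0.25 (SE, n = 3 pairs, limma adjusted p = 0.185), a fold size of 1.52, with a 95% interval from -1.22 to 0.01. The spread of SP samples, 7.29 ± 1.09 (SD, n = 3), was wider than that of Surrounding samples, 7.89 ± 0.40 (SD, n = 3).

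The call for Dusp4 depended on mouse 1 and on the scaling. Without mouse 1 the difference was -1.01 ± 0.12 and passed the test (limma adjusted p = 0.00126, n = 2 pairs); without mouse 2 it was -0.36 and without mouse 3 -0.45, and neither passed. Under median scaling it was -0.71 (limma adjusted p = 0.00123), in a fit whose prior gave every probe the same variance. In the processed values that the authors deposited it was -0.38. The second Dusp4 probe (ILMN_2870965) had the same pattern over the mice, 0.08, -0.51 and -0.38, and passed only without mouse 1 (limma adjusted p = 0.0439). The third (ILMN_2608995) was dim, detected on 1 SP array and 2 Surrounding arrays, and differed by 0.33, -0.52 and 0.01. It sat just inside the detection rule, whereas the probe just outside it, the brighter of Spry1, was detected on 0 arrays with a lowest detection p-value of 0.06.

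Sprouty proteins are adaptors induced by growth factors that hold back signalling between the receptor and RAF. Spry4 (ILMN_2825817) read 5.40, 5.12 and 5.16 in SP from mice 1, 2 and 3, against 4.79, 4.93 and 5.31 in their Surrounding tissue. It was higher in SP in mice 1 and 2 and lower in mouse 3, and the difference was 0.22 ± 0.15 (SE, n = 3 pairs, limma adjusted p = 0.417; 95% interval -0.16 to 0.59). Spry4 lay close to background, with scanner intensities from 104.6 to 120.7 in SP and from 107.8 to 121.7 in Surrounding samples, and in the authors' processed values its difference was 0.06. Both probes of Spry1 and the probe of Spry2 had detection p-values of 0.06 or more on every array, with scanner intensities of 87.7 to 100.2 in SP and 88.5 to 100.6 in Surrounding samples. Spry1 and Spry2 were therefore not above background in either group, and no fold is given for them.

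Spred1, a relative of the Sprouty proteins that brings neurofibromin to the membrane to switch RAS off, was well above background. Its probe (ILMN_2490252) read 8.02, 8.20 and 7.90 in SP from mice 1, 2 and 3, against 7.92, 8.23 and 8.25 in their Surrounding tissue. The groups overlapped, with SP slightly higher in mouse 1 and lower in mouse 3. The difference was -0.09 ± 0.12 (SE, n = 3 pairs, limma adjusted p = 0.652; 95% interval -0.38 to 0.19).

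Etv4 and Etv5 are ETS-family transcription factors of the PEA3 group, whose mRNAs follow ERK activity in many epithelia. Etv4 (ILMN_2778111) read 5.94, 5.86 and 5.86 in SP from mice 1, 2 and 3, against 5.73, 5.40 and 6.14 in their Surrounding tissue. The SP samples lay close together and inside the range of the Surrounding samples; the difference was 0.13 ± 0.15 (SE, n = 3 pairs, limma adjusted p = 0.624; 95% interval -0.24 to 0.50). Etv5 (ILMN_2938047) read 5.99, 5.77 and 5.51 in SP, against 5.80, 5.65 and 5.89 in their Surrounding tissue. Both genes were higher in SP in mice 1 and 2 and lower in mouse 3. For Etv5 the difference was -0.03 ± 0.14 (SE, n = 3 pairs, limma adjusted p = 0.918; 95% interval -0.36 to 0.30).

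Phlda1 encodes a pleckstrin homology-like protein that is induced by growth factors and is also known as a marker of intestinal crypt progenitors. Its probe (ILMN_2754985) read 10.87, 10.49 and 10.24 in SP from mice 1, 2 and 3, against 10.19, 10.36 and 9.96 in their Surrounding tissue. SP was higher in 3 of 3 mice, by 0.69, 0.12 and 0.29, but the groups overlapped. The difference was 0.37 ± 0.13 (SE, n = 3 pairs), a fold size of 1.29, with a 95% interval from 0.05 to 0.68 on the log2 scale. It did not pass over all probes (limma adjusted p = 0.137), and its adjusted p ran from 0.0687 to 0.459 over the alternatives tried.

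**Figure D2:**
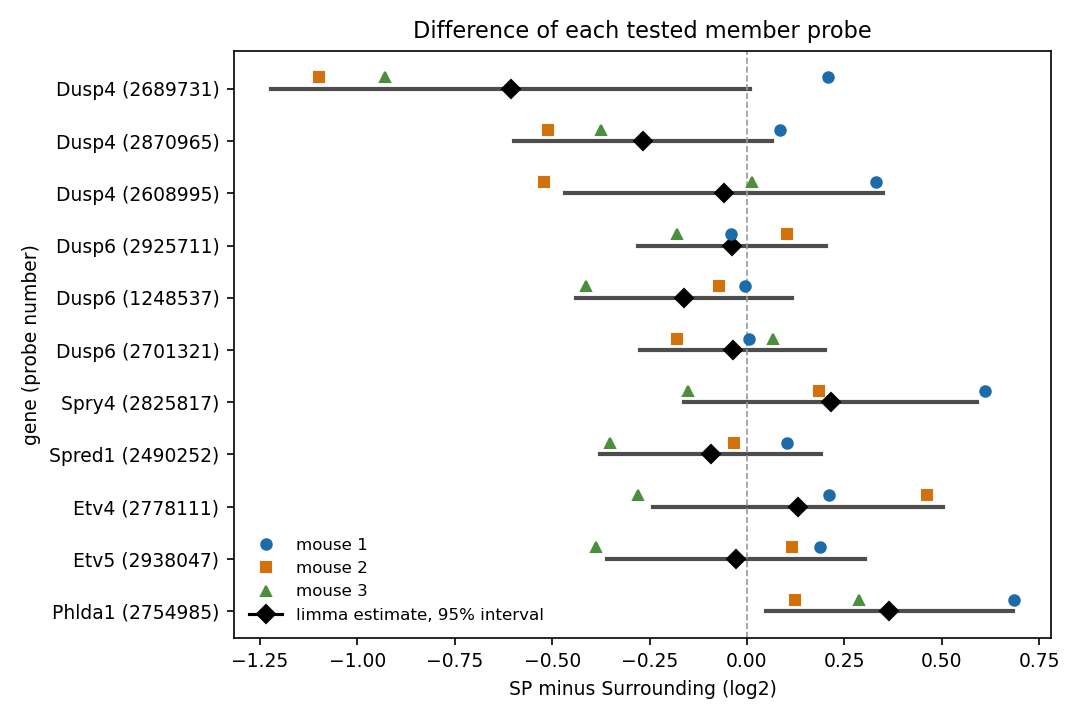
SP minus Surrounding on the log2 scale for the 11 tested probes, named by gene and probe number. Diamonds and bars are the limma estimate and its 95% interval, coloured symbols are the 3 mice. The bar of Phlda1 alone lies on one side of 0, from 0.05 to 0.68, and the widest bar, that of the brightest Dusp4 probe, runs from -1.22 to 0.01.

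Other genes of the pathway were read from lists chosen by function. The list of receptors and ligands at its head, the EGF receptor family and its ligands, had the most calls of these lists. It named 13 genes, of which 9 had a probe and 6 were tested, with Egfr the only receptor among the tested. Of the 6 tested genes, 4 were higher in SP and 0 lower, where 5% of all tested genes were higher and 6.46% lower. Egfr, the receptor, was higher by 0.89 ± 0.12 (limma adjusted p = 0.0107, n = 3 pairs, SE), and its ligand Btc, betacellulin, by 0.89 ± 0.09 (limma adjusted p = 0.0051). The neuregulins Nrg1 and Nrg4, ligands of the related ERBB receptors, rose by 0.64 and 0.60 (limma adjusted p = 0.0412 and 0.024). Both lay close to background, with Surrounding means of 4.62 and 4.60, and were detected on 2 of 3 Surrounding arrays. Nrg1 passed in 7 of 13 alternatives and Nrg4 in 6 of 12. Hbegf, the mouse gene for the ligand named above, differed by 0.14 ± 0.13 (limma adjusted p = 0.53). In the authors' processed values 2 of the 6 passed, Egfr and Btc, and 0 did in a fit unpaired by mouse. Egfr did not pass without mouse 2 (limma adjusted p = 0.0627) or without mouse 3 (limma adjusted p = 0.0626).

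The cascade between receptor and ERK held 10 tested genes. Of these 0 changed by the adjusted test, where 11.5% of all tested genes did. At an unadjusted p under 0.05, 1 passed, where 28.9% of all tested genes did. That gene, Rras, a RAS relative, differed by 0.42 ± 0.10 (limma adjusted p = 0.0512), and passed as higher in SP in 7 of 14 alternatives, where its adjusted p ran from 0.0174 to 0.278. The brightest were Map2k2, one of the MEK kinases, at 0.19 ± 0.09 (limma adjusted p = 0.232), and Shc1, an adaptor, at -0.03 ± 0.10 (limma adjusted p = 0.866). Of 8 other feedback inhibitors and adaptors 0 changed and 1 passed at an unadjusted p under 0.05, to be read beside the same shares. With so few genes these counts are not results about the lists. Among them Errfi1, which binds and blocks the EGF receptor, differed by -0.17 ± 0.16 and Rasa1, a protein that switches RAS off, by -0.07 ± 0.11. Whether the receptor and ligand list and the members differ was not tested.

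Among 15 tested late outputs 1 rose and 1 fell, both secreted proteases, where 5% of all tested genes rose and 6.46% fell. Mmp10, a stromelysin, rose by 1.54 ± 0.12 (limma adjusted p = 0.0029, n = 3 pairs, SE), and Mmp13, a collagenase, fell by 0.72 on the log2 scale (limma adjusted p = 0.0165). Mmp13 no longer passed without mouse 2 (limma adjusted p = 0.0969) or without mouse 3 (limma adjusted p = 0.0817). In the unpaired fit Mmp10 did not pass either (limma adjusted p = 0.0935). At an unadjusted p under 0.05, 6 of the 15 passed, against 28.9% of all tested genes, and the list median was 0.02.

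Of 13 tested immediate early and ETS genes 1 fell and 0 rose, where 6.46% of all tested genes fell. It was Ets1, a transcription factor known from lymphocytes and endothelium, lower by 1.02 on the log2 scale (limma adjusted p = 0.00419). Ets1 was -0.94, -1.17 and -0.94 in mice 1, 2 and 3, and in a fit unpaired by mouse it did not pass (limma adjusted p = 0.0546). In the same samples 9 of 9 tested T cell markers and 6 of 6 tested B cell markers were lower, while 8 of 8 tested endothelial markers were higher. The B cell marker Ms4a1 was detected on 0 SP arrays and 3 Surrounding arrays, and so entered the test only through Surrounding samples. The part of these markers in the value of Ets1 was not tested. The brightest genes of the list were Egr1 at -0.41 ± 0.17 (limma adjusted p = 0.173) and Fos at -0.21 ± 0.14 (limma adjusted p = 0.381). Of 7 other tested MAP kinase phosphatases 0 changed and 3 passed at an unadjusted p under 0.05, against 11.5% and 28.9% of all tested genes. Dusp1, which is induced by many stresses, differed by -0.42 ± 0.16 and Dusp16 by 0.02 ± 0.12.

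**Figure D3:**
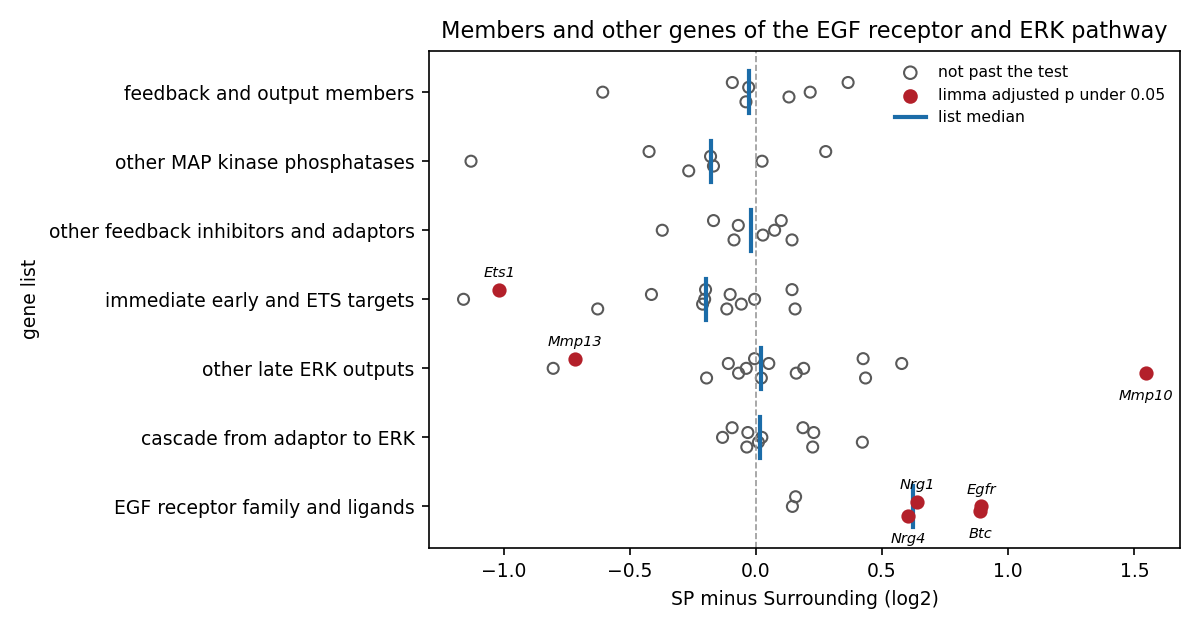
SP minus Surrounding on the log2 scale for the brightest tested probe of each gene, by list; filled points passed the limma test (adjusted p under 0.05), open points did not, and vertical bars are list medians. The members lie around 0, with a median of -0.03 and no filled point, and the EGF receptor list lies above 0, with a median of 0.62.

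The split seen for Dusp4, with SP higher in mouse 1 and lower in mice 2 and 3, was then counted in the other lists; it was chosen after the values of Dusp4 were seen. Of the 7 member genes 2 had it, Dusp4 and Spred1. It was found in 6 of 7 other MAP kinase phosphatases and in 8 of 13 immediate early and ETS genes, against 8.96% of all 9246 tested genes. It was rarer elsewhere, in 2 of 8 other feedback inhibitors and adaptors and 3 of 15 late outputs. In the cascade 1 of 10 genes had it, and in the EGF receptor list 0 of 6. Only signs were counted, so values near 0 count too, such as 0.01 for Dusp1 in mouse 1. Dusp2, a phosphatase of activated leukocytes, was 0.09 in mouse 1, -1.84 in mouse 2 and -1.63 in mouse 3. Egr2, an early growth response factor, was -0.20, -1.65 and -1.63, negative in all 3 mice and so outside this count. The list medians in mice 1, 2 and 3 were 0.14, -0.33 and -0.31 for the other phosphatases and 0.11, -0.37 and -0.43 for the immediate early genes. For the members they were 0.21, 0.11 and -0.28, and for all tested genes 0.00, 0.02 and 0.02.

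Without mouse 1, 2 of the 7 other phosphatases fell, Dusp1 and Dusp2, and 6 of the 13 immediate early and ETS genes did, namely Egr1, Ier3, Junb, Ets1, Fosb and Egr2. In that fit calls were more frequent in general: 15.4% of all tested genes changed and 9.12% fell, against 11.5% and 6.46% with all 3 mice. Dusp2 was then -1.74 (limma adjusted p = 0.000135, n = 2 pairs) and Egr2 -1.64 (limma adjusted p = 0.000139, n = 2 pairs). Both genes were picked after their values were seen, so these p-values do not test the split. Without mouse 2, and likewise without mouse 3, 0 of the 7 phosphatases passed. Of the 13 immediate early and ETS genes only Ets1 passed in those fits. Calls were fewer in general there: of 13409 tested probes 412 changed without mouse 2 and 534 without mouse 3, against 1927 without mouse 1. The lower counts are therefore not a trait of these lists. In the fit over 3 mice the differences were -1.13 for Dusp2 (limma adjusted p = 0.111) and -1.16 for Egr2 (limma adjusted p = 0.0594). The EGF receptor list had 4 rises without mouse 1, 2 without mouse 2 and 1 without mouse 3, to be read beside the same totals. With 1 pair per mouse the difference between mouse 1 and the other mice cannot be tested. The summed level of 8 macrophage and monocyte markers, on the linear scale, was 12287, 8410 and 3291 in SP from mice 1, 2 and 3, against 11135, 11020 and 6068 in their Surrounding tissue. The higher sum in mouse 1 came from Cd14 alone, at 1.12 on the log2 scale (SP minus Surrounding), while the other 7 markers were lower in SP there; in mice 2 and 3 all 8 were lower. The list medians were -0.15, -0.43 and -1.05 in mice 1, 2 and 3. Other marker lists varied by mouse too, with medians of 1.95, 0.36 and -0.39 for mast cell and 0.05, -0.16 and -0.33 for crypt progenitor markers. Fibroblast medians were -0.16, 0.15 and -0.44. Pan-leukocyte, T cell, B cell and smooth muscle medians were below 0 in all 3 mice, and neutrophil, epithelial and endothelial medians above 0. The part of any of these markers in the pattern was not tested.

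**Figure D4:**
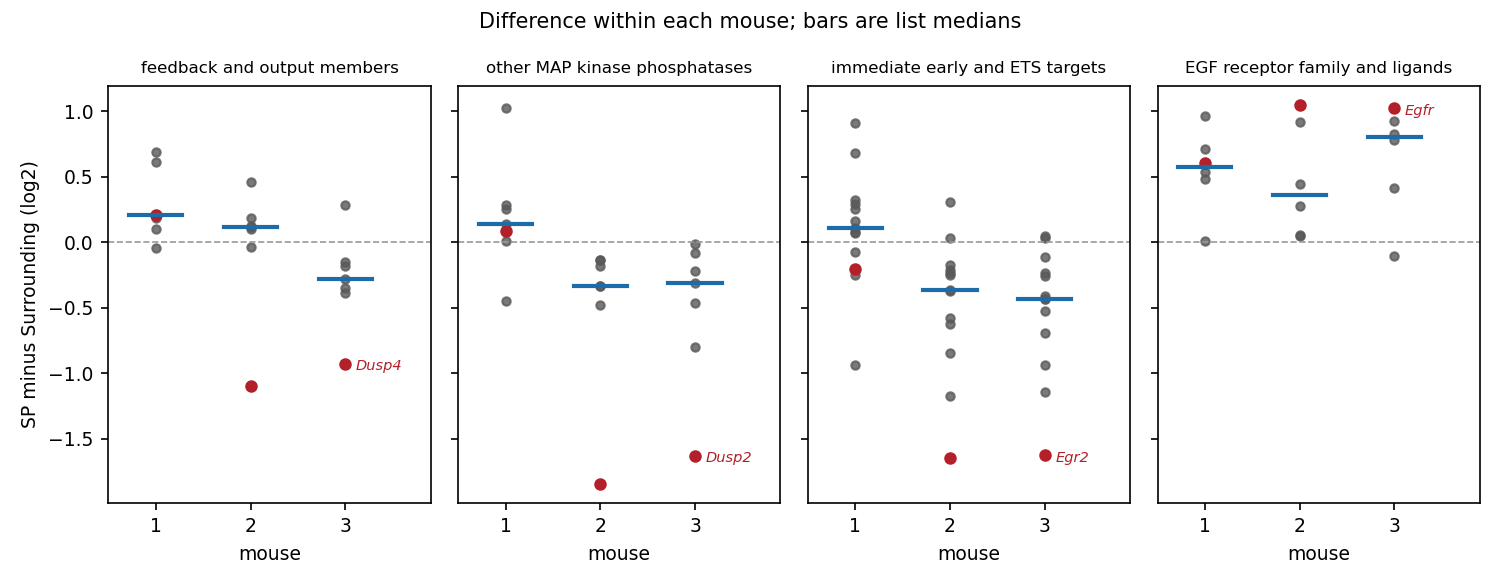
SP minus Surrounding on the log2 scale within mice 1, 2 and 3, for the members and 3 other lists; each point is the brightest tested probe of a gene, bars are list medians, and red points are the named genes. Dusp4, Dusp2 and Egr2 lie far below 0 in mice 2 and 3 and near 0 in mouse 1, while Egfr lies above 0 in all 3 mice.

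Dusp6 had the brightest probe of the members, and the tested genes with the most similar profile over the 6 arrays were sought for it. After each gene was centred on its own mean, the root mean square distance to Dusp6 was smallest for C130050O18Rik (0.05 on the log2 scale), Atp6v1b2 (0.06), Rab7 (0.06), Lamp2 (0.06) and Naa15 (0.06). All 5 were highest in the samples of mouse 2 and differed little between tissues, with SP minus Surrounding from -0.09 for Lamp2 to -0.00 for Rab7. With 6 arrays, 0.735% of all tested genes lay within 0.1 of Dusp6, so the order among close neighbours carries little weight.

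Levels of cell type markers differed between SP and Surrounding samples. By the adjusted test 5% of all tested genes were higher in SP and 6.46% lower, and the marker counts below stand beside these shares. In bulk RNA, fewer cells of a type and less RNA per cell cannot be told apart. The part of cell content in the values above was not tested. Ptprc, which encodes CD45, was lower in SP in all 3 mice (-0.99 ± 0.11, SE, n = 3 pairs, limma adjusted p = 0.0052), did not pass in a fit unpaired by mouse (limma adjusted p = 0.13), and was detected on 2 of 3 SP arrays. All 6 pan-leukocyte markers fell, among them Cd52 (-0.87), as did all 9 T cell markers, led by Cd8b1 (-2.35), and all 6 B cell markers, led by Fcmr (-4.18). Of the B cell markers, Ms4a1 was detected on 3 Surrounding arrays and 0 SP arrays, so it was tested only through the group where it was higher. Neutrophil markers rose in 6 of 8 cases, led by S100a9 (2.91), and endothelial markers in 8 of 8, led by Cdh5 (0.97). Smooth muscle markers fell in 4 of 5 cases, led by Actg2 (-2.06). Epithelial markers rose in 3 of 9 cases, led by Krt19 (0.60), and their summed linear level was 45960 to 46850 in SP samples, against 40259 to 41729 in Surrounding samples. Of 6 crypt progenitor markers 1 fell, Ascl2, which was detected on 3 Surrounding arrays and 0 SP arrays. Of 9 genes listed for fibroblasts only Thy1 fell (-1.04) and 8 did not pass, so its fall is not read as a change in fibroblasts. Where 11.5% of all tested genes changed, counts of 1 in lists this small are not results about those cell types. Among macrophage and monocyte, mast cell and enteric nerve markers 0 of 8, 0 of 6 and 0 of 1 passed. At an unadjusted p under 0.05 these 3 lists had 7, 2 and 1 that passed, against 28.9% of all tested genes. Pax5, Mcpt2, Olfm4, Kdr, Cnn1, Lmod1, S100b, Gfap and Elavl4, markers of these lists, were detected on 0 arrays. The part of these differences in the members' values was not tested.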

How the data were processed

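RNA of 6 CD45-enriched cecal samples (3 SP, 3 Surrounding) was measured on an Illumina mouse BeadChip, 1 array each. The deposited scanner table gives, per the file headers, 1 linear intensity per probe and array, not normalized, with its detection p-value. The authors also deposited processed intensities; quantile normalizing the scanner values alone gave the same numbers to within 0.005. GenomeStudio and limma 3.14.4 appear, with no role given, among the tools in the submitters' processing notes. The genome build is not given in the sources used here, and coordinates are left out. All columns of values were used.

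Array medians ran from 97.3 to 109.3 and detected probes from 12657 to 13796 of 25697; the number of arrays limits the precision. In R 4.3.3 with limma 3.58.1, scanner intensities were corrected by normexp (background estimated through detection p, offset 16), then quantile normalized and taken to log2. Probes detected at p under 0.05 on 3 or more arrays were tested. The platform annotation named 23978 probes and did not list 1719; all 9 member genes with a probe matched the RefSeq mouse gene table by gene identifier. Genes with several probes were represented by the brightest.

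Each probe was fitted with a term per mouse and 1 for SP against Surrounding (lmFit, eBayes, two-sided, Benjamini-Hochberg over all tested probes, threshold 0.05). Residual degrees of freedom were 2 and those of the variance prior 4.04, so SEs and intervals lean on variances shared across probes. The series' design text states that samples of a mouse number came from the same animal. As a check, deviations from the group means correlated by 0.571, 0.564 and 0.614 between the 2 samples of mice 1, 2 and 3, and all 6 correlations between mice were below 0. Deviations within a group sum to 0, so the negative values follow in part from the positive ones and are no separate check. Samples of a mouse also had neighbouring positions on the chip. The fit was tested on simulated data.

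All members were described with every probe. From each pathway list up to 3 called genes with the largest difference were named, and the 2 brightest where fewer than 2 were called; from marker lists up to 2. Ptprc was always named. Genes outside that rule (Dusp2, Egr2, Fosb, Ier3, Junb, Hbegf, Nrg4, Ccnd1, Epha2, Rras, Phlda2, Plau, Cd14, Ms4a1 and the undetected markers) were chosen after their values were seen. Members and lists were chosen with earlier results of these data known, so no list was tested as a set. Alternatives covered background, normalization, the authors' processed values, filters, the variance prior, no mouse term, each mouse left out, and the mean of a gene's probes.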

Additional observations from a re-analysis of the deposited data

How the results depend on the processing

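The count of changed probes was 1399 (620 higher, 779 lower); median scaling gave 407 higher and 1000 lower. Without the replicate block, that is with no mouse term, 183 probes changed and 0 members did. Leaving out each mouse in turn gave 412 to 1927 changed probes, with fewer residual degrees of freedom and another prior, and 0 to 1 changed members, the 1 being Dusp4 without mouse 1. Median scaling also gave 1 changed member, Dusp4. In all other alternatives 0 members changed. The median over members ran from -0.10 to 0.15 when a mouse was left out. Of 141 values of member probes under alternatives, 132 kept direction and side of the threshold, 3 passed (all Dusp4) and 6 changed sign, all when a mouse was left out. Those ranges were -0.25 to 0.17 for the dimmest Dusp4 probe, -0.11 to 0.031 and -0.088 to 0.036 for the brightest and dimmest Dusp6 probes, -0.19 to 0.035 for Spred1, -0.034 to 0.34 for Etv4 and -0.14 to 0.15 for Etv5. Dusp16 ran from -0.11 to 0.10, Rasa1 from -0.15 to 0.047 and Shc1 from -0.090 to 0.029, and Dusp16 was -0.043 with median scaling and -0.023 with cyclic loess. The causes were not tested. Signal close to background limits Spry4, Etv4, Etv5 and the dimmer probes of Dusp4 and Dusp6, and nothing can be said of Spry1 and Spry2.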

Other observations

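The pathway genes below were chosen after their values were seen. Ccnd1, which encodes cyclin D1, differed by 0.43 ± 0.11 (SE, n = 3 pairs, limma adjusted p = 0.0585), with 0.23, 0.47 and 0.58 in mice 1, 2 and 3. Its call depended on the setting: it passed in 7 of 14 alternatives, the authors' processed values among them, where its limma adjusted p ran from 0.0152 to 0.307. Epha2, an ephrin receptor whose mRNA follows ERK activity in cell lines, differed by 0.43 ± 0.11 (limma adjusted p = 0.0622), was higher in SP in 3 of 3 mice and passed in 1 of 14 alternatives. Phlda2, a relative of Phlda1, was higher in SP by 1.08, 0.55 and 0.10 in mice 1, 2 and 3 and passed neither with all mice (limma adjusted p = 0.11) nor in any of the 14 alternatives. Plau, the urokinase protease, was higher in SP in mouse 1 and lower in mice 2 and 3, the split seen for Dusp4; it did not pass with all mice (limma adjusted p = 0.134) and passed as lower in 2 of 14 alternatives, median scaling and the fit without mouse 1.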
